A study of Sus scrofa with 12 samples.

Results

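Porcine subcutaneous preadipocytes were transfected with an siRNA against LGR4 or with an siRNA against GPR124, differentiated for 4 days, and compared with each other. The comparison uses 6 of the 12 arrays of the study, 3 with LGR4 siRNA and 3 with GPR124 siRNA, chosen by their titles and not by any measured value. The cells came from female subcutaneous tissue, and both target siRNAs were designed by SIGMA. All transfected cells of the study, those with a negative control siRNA (AllStars, QIAGEN) and with F2RL2 siRNA included, were grown in low-glucose medium (1.0 g/L) with 10% fetal bovine serum and then converted in high-glucose medium (4.5 g/L) with the same serum, insulin at 5 µg/mL, dexamethasone at 0.25 µM, biotin at 33 µM, pantothenate at 17 µM and octanoate at 5 mM. Each array carried Cy3-labelled RNA of transfected cells at day 4 together with Cy5-labelled RNA of preadipocytes at day 0 that had been neither transfected nor differentiated, from 400 ng of RNA each. Every value below is the log2 ratio of Cy3 over Cy5, so a value above 0 means more RNA at day 4 than in the undifferentiated reference. Whether replicates came from separate cultures or animals, and how many siRNA sequences were used against each target, is not in the labels. The p-values therefore measure only how these arrays vary, which could be technical variation.

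Both targets are cell-surface receptors tied to Wnt signalling, a pathway that holds preadipocytes in the undifferentiated state and has to decline for fat cells to form. LGR4 binds R-spondins, secreted proteins that keep the ubiquitin ligases RNF43 and ZNRF3 from removing Frizzled receptors, and so makes cells more responsive to Wnt ligands. GPR124, now named ADGRA2, is an adhesion G-protein-coupled receptor that works with the membrane protein RECK as a coreceptor for certain Wnt ligands and is best known from blood vessels of the brain. None of the 43221 probe identifiers of the array matched the gene tables used here, so the transcripts below are known only as probes, the level of LGR4 and GPR124 themselves could not be checked, and neither could the markers of fat cells, preadipocytes or other cell types. Cells of a type being fewer and less RNA per cell cannot be told apart in these samples.

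The arrays of each siRNA resembled each other more than those of the other siRNA. Across the 32346 probes kept (signal well above background on 3 or more of the 12 arrays, counted within a channel), log ratios correlated at 0.917 to 0.958 among the LGR4 arrays and at 0.889 to 0.949 among the GPR124 arrays, against 0.633 to 0.743 between the groups. Probes are not independent replicates, and all arrays share the reference RNA, so these correlations are a description. The median SD over probes was 0.0997 with LGR4 siRNA and 0.125 with GPR124 siRNA. The arrays lay on 3 glass slides. LGR4 replicates 1 and 2 were on slide 2, while LGR4 replicate 3 shared slide 3 with all GPR124 arrays. Its log ratios correlated at 0.917 and 0.958 with the LGR4 arrays of the other slide and at 0.663 to 0.71 with the GPR124 arrays of its own. In the Cy3 channel, 25323 to 28458 probes lay well above background with LGR4 siRNA and 24720 to 29243 with GPR124 siRNA, ranges that overlap. In the Cy5 channel the ranges did not overlap, at 30350 to 31185 against 23594 to 26485. On slide 3, 154 to 335 spots per array were marked as outliers, against 1 or 2 on the LGR4 arrays of slide 2. The slope of measured on designed log ratios of the spike-in RNAs, as given in the scanner files, was 0.857 to 0.864 with LGR4 and 0.847 to 0.860 with GPR124 siRNA.

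RNA levels differed between the LGR4 and GPR124 siRNA arrays for a large share of the probes. Slide went largely with group, and its part in these differences was not tested. Of 32344 probes with values in both groups, 12139 differed (limma, Benjamini-Hochberg adjusted p under 0.05), which is 37.5% of those tested, with 6129 (18.9%) higher and 6010 (18.6%) lower under LGR4 siRNA. Most of these differences were small. The median absolute log2 difference was 0.201 over all probes and 0.470 over those called. The balance shifted with size. A difference of at least 1 log2 was reached by 1165 probes (3.6%), of which 846 (2.62%) were higher under LGR4 siRNA and 319 (0.986%) were lower. At a difference of at least 2 there were 95 and 27. Beyond 3 log2 the numbers were 14 and 11, and the 2 probes beyond 4 were both lower under LGR4 siRNA. The 3 arrays of one group lay entirely above or below the 3 of the other for 1142 of the 1165 probes that differed by at least 1, overlapped for 3, and for the other probes at least 1 spot was missing. These probes were chosen for a large difference; over all 31671 probes with a value on all 6 arrays, 45.9% had groups that did not overlap.

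**Figure D1:**
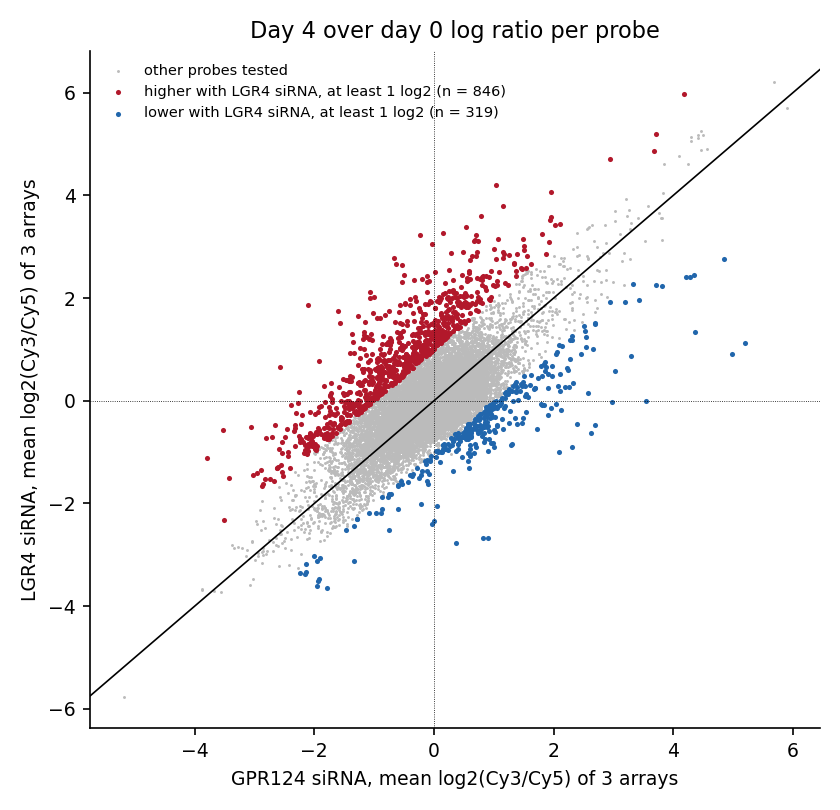
Mean log2 ratio of day 4 over day 0 with LGR4 siRNA (vertical) against GPR124 siRNA (horizontal), each the mean of 3 arrays, for 32344 probes; the line marks equal values. Red points are the 846 probes higher and blue points the 319 probes lower by at least 1 log2 with LGR4 siRNA, and the red points lie mostly where the GPR124 mean is below 0, with a median of -0.602 against 0.838 for LGR4.

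The direction of the smaller differences depended on how arrays were scaled. With each array's log ratios centred on their median instead of loess-normalized, 7363 probes were called, 39.0% of them higher under LGR4 siRNA against 50.5% after loess. The share was 45.8% with the scanner's processed signals and 47.8% after loess without GPR124 replicate 1, so which direction held the majority of calls was not settled. Among probes that differed by at least 1 log2 the share higher was 72.6% after loess, 58.3% after median centring and 57.5% with the scanner's processed signals, so that the larger differences favoured LGR4 siRNA under each of these scalings. Calls also followed brightness. With probes in 4 equal groups by brightness, 14.4% of the dimmest and 53.1% of the brightest group were called. In the brightest group 392 probes were higher and 56 lower by at least 1 log2 with LGR4 siRNA, and in the dimmest 24 and 27.

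Probes called without an array mostly lay on the same side on the array left out. Without LGR4 replicate 3, 873 probes were higher and 356 lower by at least 1 log2 under LGR4 siRNA. On that array itself, 869 of the former lay above all 3 GPR124 arrays and 353 of the latter below them, with median differences of 1.32 and -1.12. This is the array that shares the slide of the GPR124 arrays. For the other 5 arrays taken in turn, 99.0% to 100% of the probes called without the array lay beyond all 3 arrays of the other group on it. Those 3 arrays had also chosen the probes, so these counts are a description. Over all probes with a value on each array, the groups did not overlap for 45.9%, at 3 arrays against 3. On slide 3 alone, with the single LGR4 array assumed to vary like the GPR124 arrays, 3713 probes were called (11.6%), 2211 higher and 1502 lower, and 861 and 309 of them differed by at least 1. Of the 1165 probes that differed by at least 1 over all arrays, 1161 had a value on slide 3 and 1160 went the same way there. With slide as a fixed block, 7746 probes were called (23.9%), and 1147 of the 1165 were called in the same direction. All GPR124 arrays were on slide 3, so where LGR4 replicate 3 has a value, the block contrast rests on that LGR4 array alone. It then gives the same differences as slide 3 alone and is not a separate check. The arrays of slide 3 were among those that chose the 1165 probes. Both counts were largely set by that choice and are a description.

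The larger differences were also seen in the channel of the transfected cells alone. With Cy3 alone 10271 probes were called (31.8%), and all 846 higher and 319 lower probes kept their direction, with 837 and 312 called. Their median differences were 1.34 and -1.22 in Cy3, against 1.35 and -1.21 in the log ratio and 0.106 and 0.0164 in Cy5. The Cy5 channel held the same reference RNA on every array by the labels, and 204 probes were called in it (0.631%), 25 of them with a difference of at least 1. That count was not stable. Without LGR4 replicate 3, when slide separated the groups completely, 11131 probes were called in Cy5, 460 of them with a difference of at least 1. In the log ratio the same arrays gave 11092 calls, 1233 of them with a difference of at least 1. The Cy5 count was 385 without F2RL2 replicate 1 and 55 with the replicate number as a block. It was between 49 and 93 without LGR4 replicate 1 or 2, GPR124 replicate 1 or 2, any of the 3 control arrays or F2RL2 replicate 2. Within slide 3 alone 1114 probes were called in Cy5 (3.47%), and 690 of them differed by at least 1. LGR4 replicate 3 lay as far from the mean Cy5 values of slides 1 and 2 as the GPR124 arrays did, with a median absolute deviation of 0.166 against 0.153 to 0.162. LGR4 replicates 1 and 2 lay at 0.0732 and 0.0737, but they are part of those means, which lowers their deviation. In Cy5 on slide 3, 14 of the 846 higher probes and 6 of the 319 lower ones were called in the direction that would enlarge the log ratio difference. In the Cy3 channel of that slide 839 of 843 and 315 of 318 with a value went the same way as in the log ratio. The part of slide and reference in these differences was not tested.

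Probes raised at day 4 in control siRNA cells stood lower with GPR124 siRNA than with LGR4 siRNA. Lists were taken from the 3 control siRNA arrays, which are in neither group: 1171 probes were raised at day 4 by at least 1 log2 (adjusted p under 0.05 against 0; 3.62% of probes) and 1835 were lowered by as much (5.67%). Control cells were transfected and the day 0 reference was not, and dyes were not swapped. Differentiation, transfection and dye therefore cannot be told apart in these lists. The mean log ratio of the raised probes was 1.31, 1.39 and 1.33 on LGR4 replicates 1 to 3 and 0.881, 0.940 and 0.776 on GPR124 replicates 1 to 3. The groups did not overlap. The means were 1.34 ± 0.041 (SD, n = 3) and 0.866 ± 0.083, a difference of 0.477 with a 2-sided exact permutation p of 0.1, the smallest that 3 arrays against 3 allow. Between arrays of the same replicate number the LGR4 array was higher in 3 of 3 pairs, by 0.426, 0.447 and 0.557. The 2-sided exact sign-flip permutation p was 0.25, the smallest that 3 pairs allow. On slide 3, LGR4 replicate 3 at 1.33 was above each GPR124 array. Of the 1171 raised probes, 651 were higher under LGR4 siRNA, 148 were lower and 372 did not pass. The higher calls are 55.6% of the list, against 18.9% of all probes tested, and the median difference was 0.437, against 0.00494 over all probes. At a difference of at least 1 there were 250 higher (21.3%) and 34 lower (2.9%), against 2.62% and 0.986% of all probes. The median difference was 0.259 with median centring (719 probes) and 0.0834 when every called rise in control cells, of any size, defined the list (9261 probes). With slide as a fixed block and on slide 3 alone, which both rest on LGR4 replicate 3, it was 0.385.

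For the lowered probes the ranges of the groups overlapped. Their mean log ratios were -1.29, -1.20 and -1.15 on the LGR4 arrays and -1.25, -1.12 and -1.09 on the GPR124 arrays, that is -1.21 ± 0.071 and -1.16 ± 0.084 (n = 3, 2-sided exact permutation p = 0.4). Between arrays of the same replicate number the LGR4 array was lower in 3 of 3 pairs, with differences of -0.040, -0.074 and -0.058 and a 2-sided exact sign-flip permutation p of 0.25, the smallest that 3 pairs allow. Single probes of this list still differed. Of 1835, 683 were lower and 443 higher under LGR4 siRNA and 709 did not pass, with a median difference of -0.143. That median was -0.0744 with slide as a fixed block, -0.0759 on slide 3 alone, -0.254 with processed signals, -0.225 with a list from F2RL2 arrays and -0.0401 with every called fall in control cells. The lower calls are 37.2% of the list, against 18.6% of all probes, and the higher calls 24.1%, against 18.9%. At a difference of at least 1 there were 118 higher (6.43%) and 62 lower (3.38%). Over all probes these shares were 2.62% and 0.986%, so more were higher there as well. The 29338 probes in neither list gave 5035 higher and 5179 lower calls and a median difference of 0.00322.

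**Figure D2:**
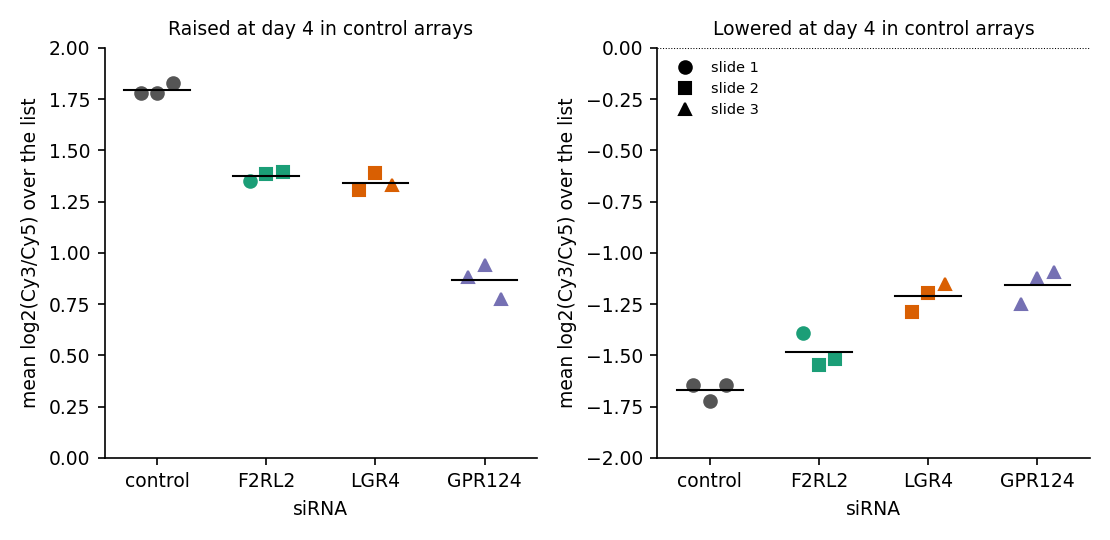
Mean log2 ratio of day 4 over day 0 on each array, by siRNA, over the 1171 probes raised (left) and the 1835 probes lowered (right) at day 4 in control siRNA arrays; marker shape gives the slide and the line the group mean. On the left the GPR124 arrays (0.776 to 0.940) lie below the LGR4 arrays (1.31 to 1.39), also within slide 3, and on the right the groups overlap.

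The difference was seen at each size of rise in control cells above 1 log2. Probes were grouped by their mean log ratio on the control arrays, and the median was taken on each array. Among the 839 probes at 1 to 2 in control the median was 1.06 ± 0.030 with LGR4 and 0.587 ± 0.093 with GPR124 siRNA (SD, n = 3). It was 1.64 ± 0.089 against 1.16 ± 0.14 for the 222 probes at 2 to 3, 2.33 ± 0.18 against 1.86 ± 0.21 for the 78 at 3 to 4, and 3.50 ± 0.048 against 2.46 ± 0.25 for the 32 above 4. In each of these 4 ranges all LGR4 arrays lay above all GPR124 arrays. On the lowered side the separation was seen among the strongest changes. For the 350 probes at -3 to -2 in control the median was -1.87 ± 0.095 with LGR4 and -1.55 ± 0.12 with GPR124 siRNA, and for the 86 at -4 to -3 it was -2.54 ± 0.10 and -2.13 ± 0.22, with no overlap of arrays. For the 1392 probes at -2 to -1, at -1.02 ± 0.051 and -0.957 ± 0.083, the arrays overlapped. Outside the range of -0.5 to 0.5, the GPR124 median lay nearer to 0 than the LGR4 median in every range with at least 20 probes, also with median centring, processed signals or no background correction. After median centring the arrays of both groups overlapped in most ranges, the one at 1 to 2 included (0.959 against 0.707).

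**Figure D3:**
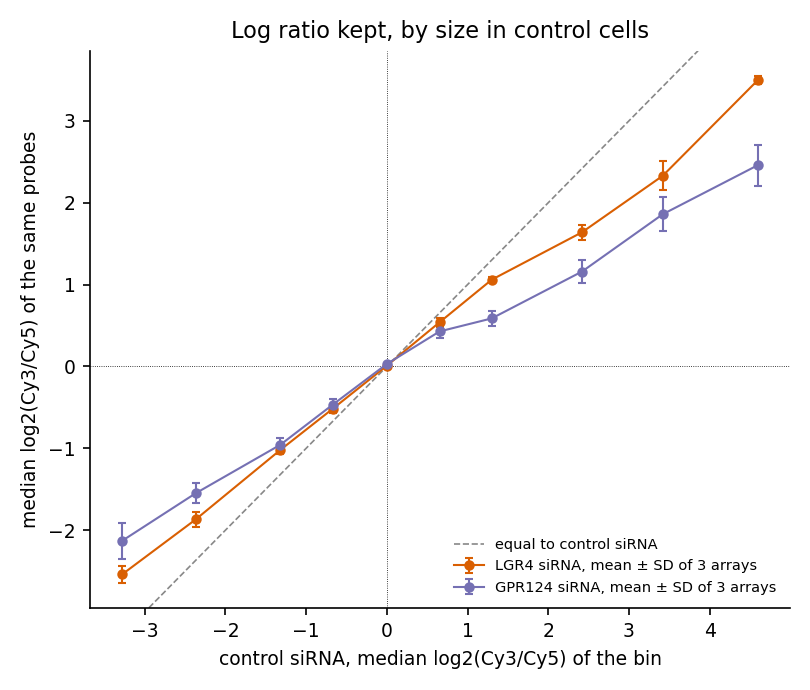
Median log2 ratio with LGR4 siRNA and GPR124 siRNA (mean ± SD of 3 arrays) for probes grouped by their log ratio on control siRNA arrays, plotted at the control median of each group; the dashed line marks values equal to control. Both curves are flatter than the line, and the GPR124 curve is the flatter of them, from -2.13 to 2.46 against -2.54 to 3.50 for LGR4.

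One number per array gives the same order. The slope of an array's log ratios on the control mean over all kept probes was 0.796, 0.743 and 0.720 on LGR4 replicates 1 to 3 and 0.675, 0.615 and 0.572 on GPR124 replicates 1 to 3, without overlap. The means were 0.753 ± 0.039 and 0.621 ± 0.052 (n = 3, difference 0.133, 2-sided exact permutation p = 0.1, the smallest possible). In pairs of the same replicate number the slope was higher on the LGR4 array by 0.121, 0.128 and 0.148. The 2-sided exact sign-flip permutation p was 0.25, the smallest that 3 pairs allow. With probes above 0 in control alone, slopes were 0.702 to 0.764 with LGR4 and 0.436 to 0.516 with GPR124 siRNA. With those below 0, they were 0.705 to 0.777 and 0.657 to 0.741, ranges that overlap, with the LGR4 array higher in 3 of 3 pairs of the same number. With the F2RL2 mean in place of the control mean the slope difference was 0.205. The SD of log ratios over probes was 0.609 ± 0.031 on LGR4 and 0.595 ± 0.0090 on GPR124 arrays, with overlapping values (2-sided exact permutation p = 0.7).

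Some transcripts raised in control cells lay below the reference with GPR124 siRNA. Of the 1171 raised probes, 174 had a mean log ratio below 0 with GPR124 siRNA and 28 with LGR4 siRNA, and 735 and 441 had one within 1 of the reference. The 250 raised probes that were higher under LGR4 siRNA by at least 1 had a median log ratio of 1.86 in control, whose arrays define the list, and 1.42 with F2RL2 siRNA. Under LGR4 siRNA their median was 1.74 (1.63 to 1.81 by array) and under GPR124 siRNA it was 0.119 (-0.0124 to 0.170), and 105 of them lay below the reference there. The 34 raised probes that were lower under LGR4 siRNA stood at 1.10 with LGR4 and 2.54 with GPR124 siRNA, against 1.72 in control.

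Among the lowered probes, the 118 higher under LGR4 siRNA by at least 1 had a median of -0.464 with LGR4 and -1.84 with GPR124 siRNA. Control cells stood at -1.47 and F2RL2 siRNA at -0.806. The 62 lower under LGR4 siRNA stood at -1.63 with LGR4 and -0.421 with GPR124 siRNA, against -1.81 in control and -1.91 with F2RL2 siRNA. The largest class lay outside both lists. The 478 such probes that were higher under LGR4 siRNA had a control median of 0.114, and were at 0.622 with LGR4 and -0.763 with GPR124 siRNA. The 223 that were lower had a control median of -0.159, and were at -0.440 and 0.891. Of the 12139 called probes, 2329 were above the reference with LGR4 and below it with GPR124 siRNA, and 2589 the other way round. At least 0.5 above it with LGR4 and 0.5 below it with GPR124 siRNA stood 151, and 60 the other way round. That distance requires a difference of at least 1, where 846 of all probes were higher and 319 lower. The 151 and 60 therefore repeat that balance.

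Control cells lay nearer to the LGR4 arrays than to the GPR124 arrays for most probes, whether they differed or not. This held for 563 of the 846 higher probes (66.5%) and 273 of the 319 lower ones (85.6%). The share was 60.4% of all probes tested and 69.3% of all called, so the higher probes were near the background and the lower ones above it. With LGR4 replicate 3, which shares the slide of the GPR124 arrays, in place of the LGR4 mean, the shares were 67.3% and 85.5%, against 56.7% of all probes. With F2RL2 siRNA as the outside group they were 75.2% and 94.4%, against 70.1% of all probes and 81.1% of all called. The control arrays were all on slide 1 and the F2RL2 arrays on slides 1 and 2, so neither group shared a slide with the GPR124 arrays.

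A few transcripts were measured in one group alone. In Cy3, 99 of 43221 probes lay well above background on all 3 LGR4 arrays and on no GPR124 array, and 33 showed the reverse. Of the 99, 58 were called, all higher under LGR4 siRNA, and of the 33, 19 were called, 17 of them lower. Of all probes tested, 18.9% were called higher and 18.6% lower under LGR4 siRNA. The 99 and the 33 were chosen for being detected in that group, so their counts are a description. Since the dimmer group gives only a bound, their folds are lower limits, computed from normalized Cy3 signals against the lowest signal well above background on each array. The limit reached at least 2-fold for 15 and 8 probes, with a highest value of 6.91-fold for LGR4 siRNA and 4.09-fold for GPR124 siRNA.

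The probes with the largest differences fell into unlike patterns. AGPOA3-20983 stood at 1.80, 1.82 and 1.96 on LGR4 replicates 1 to 3 and at -1.99, -2.07 and -2.24 on GPR124 replicates 1 to 3. It lay above the reference on every LGR4 array and below it on every GPR124 array, 15.6-fold apart (log2 difference 3.96, SE 0.11, limma adjusted p = 7.9e-10). In Cy3 it was well above background on 1 of 3 GPR124 arrays, so its low level there rests on signals near background, and with processed signals the log2 difference was 5.21. Control cells, at -1.95 ± 0.13, stood with the GPR124 arrays: the difference from control was -0.149 with GPR124 siRNA (limma adjusted p = 0.305) and 3.81 with LGR4 siRNA. F2RL2 siRNA lay between, at -0.630 ± 0.19.

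AGPOA3-41005 was high with LGR4 siRNA, at 3.27, 3.33 and 3.08, and just under the reference with GPR124 siRNA, at -0.320, -0.0733 and -0.320. The difference was 3.47 (SE 0.087), 11.1-fold (limma adjusted p = 5.49e-10). Control cells, at 1.53 ± 0.027, lay between the groups, 1.70 below LGR4 and 1.77 above GPR124 siRNA. In Cy5 alone this probe differed by 0.697 in the same direction (limma adjusted p = 0.00646), and in Cy3 alone by 3.90.

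The 2 probes that were lowest under LGR4 siRNA varied among the GPR124 arrays. AGPOA3-26962 stood at 0.778, 1.03 and 0.928 with LGR4 and at 3.58, 5.64 and 5.73 with GPR124 siRNA, a difference of -4.07 (SE 0.41, limma adjusted p = 9.01e-06), or 16.8-fold. GPR124 replicate 1 was the low array of its group and still lay above all LGR4 arrays. In Cy3 this probe was well above background on 2 of 3 LGR4 arrays, and with the scanner's processed signals its difference was -2.85 (limma adjusted p = 0.0493). AGPOA3-39164 stood at 1.00, 1.05 and 1.31 with LGR4 and at 5.74, 6.12 and 3.71 with GPR124 siRNA, a difference of -4.07 (SE 0.45, limma adjusted p = 1.73e-05), or 16.8-fold. Here GPR124 replicate 3 was the low array. The SD of the GPR124 arrays was 1.2 for AGPOA3-26962 and 1.3 for AGPOA3-39164, while each SE pools the spread of all 12 arrays. With the 6 LGR4 and GPR124 arrays alone the limma adjusted p was 0.00063 and 0.000857. Control cells lay between the groups for both, at 2.59 ± 0.16 and 3.08 ± 0.23, and F2RL2 siRNA beside LGR4, at 0.684 ± 0.083 and 0.995 ± 0.18. In Cy5 each of the 2 probes was well above background on 1 of the 6 arrays, so the level against the reference rests on reference signals near background, while in Cy3 alone the differences were -4.52 and -4.47. With those processed signals, the difference of AGPOA3-39164 was -2.13 and did not pass (limma adjusted p = 0.0749).

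**Figure D4:**
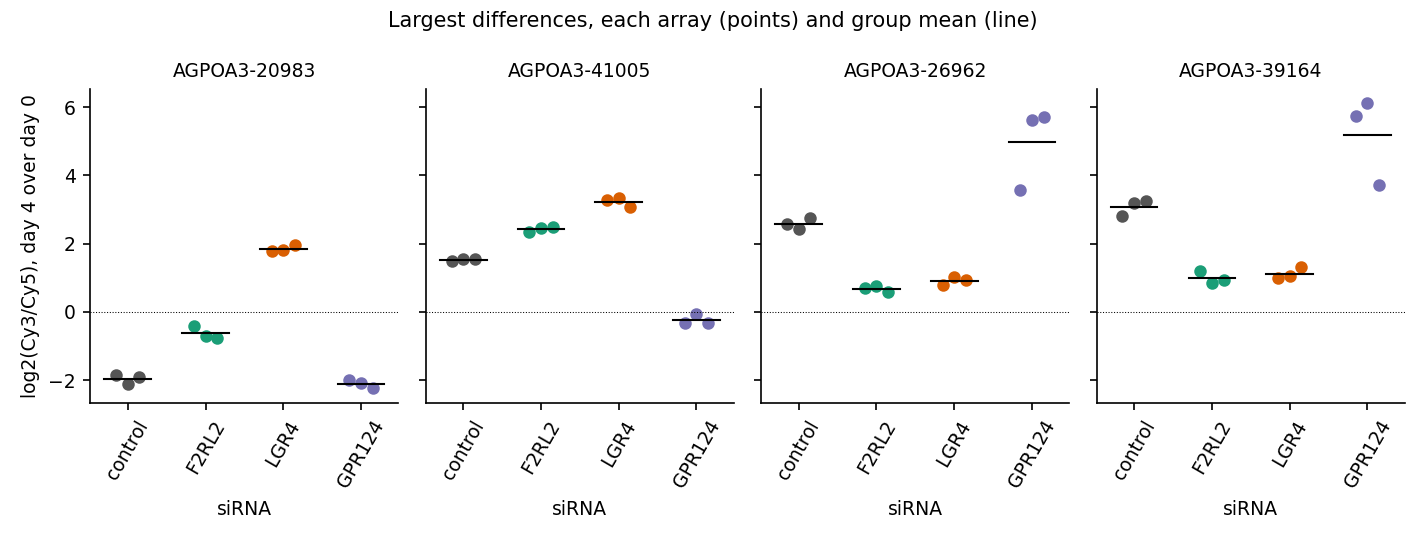
Log2 ratio of day 4 over day 0 on each of the 12 arrays (points) with the group mean (line) for the 2 probes most raised and the 2 most lowered under LGR4 siRNA relative to GPR124 siRNA. For AGPOA3-20983 the control arrays lie with GPR124 siRNA, for the other 3 probes they lie between LGR4 and GPR124 siRNA.

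The 20 largest differences in each direction covered 2.81 to 3.96 log2 on the higher side and 2.28 to 4.07 on the lower side, with medians of 3.1 and -3.05. All were chosen for size, so their adjusted p-values, at most 1.61e-05 and 0.000325 (limma), are given as a description. In 15 of the 20 higher probes control cells stood at 1 or more above the reference, where 3.62% of all probes were raised by that much. With GPR124 siRNA 16 of these 20 had a mean below the reference. Of the 20 lower probes, 14 had a mean below the reference with LGR4 siRNA and 18 a mean above it with GPR124 siRNA. Control cells stood at 1 or more above the reference for 5 of them and at 1 or more below for 3. Against control siRNA, LGR4 siRNA differed for 17 of the 20 on either side (23.1% of all probes), and GPR124 siRNA for 19 and 19 (39.4% of all probes). These comparisons share the control arrays. All 20 on each side kept their direction and were called with Cy3 alone. With slide as a block the differences again rested on LGR4 replicate 3 among the LGR4 arrays. They were 4.06 and 3.32 for the 2 largest higher and -4.06 and -3.88 for the 2 largest lower probes. The same arrays had chosen these probes. In Cy5 alone 3 of the 20 higher and 0 of the 20 lower were called by limma, against 0.631% of all probes. The differences in Cy5 reached 1.21 and 0.89. One higher probe, at 2.45 ± 0.83 with LGR4 siRNA, had no Cy3 signal well above background with GPR124 siRNA, and its fold is bounded at 6.91 or more.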

How the data were processed

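Spots were quantified by Agilent Feature Extraction 9.5.3.1, per the file headers. The deposited intensity columns used were median spot and local background signals of each channel, with no normalization, and the processed signals, which that software background-subtracted and dye-normalized. The deposited log10 ratio (Cy5 over Cy3) was used only for direction. The deposited value table holds the log2 ratio of processed Cy3 over Cy5, equal within 5e-10, with no further centring; its column medians were 0.12, 0.11 and 0.15 for LGR4 siRNA, -0.25, -0.15 and -0.21 for GPR124 siRNA, and -0.089 to 0.14 for the other 6 arrays. Scale, centring and direction are thus known.

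Signals were corrected with normexp (offset 50), normalized by loess within each array with 1417 control spots at weight 0, and fitted with limma 3.58.1 in R 4.3.3 over all 12 arrays, 1 coefficient per group, with LGR4 minus GPR124 as the contrast. Outlier spots were left out on their array, so such probes rest on fewer arrays, and 2 probes had no estimate. Single channels were quantile-normalized between arrays. Each probe has 1 spot. The fit was tested on simulated data. Groups and replicate numbers came from the titles, which spell F2RL2 where another field has R2RL2. Deviations from the group means correlated at 0.552, 0.414 and 0.229 between LGR4 and GPR124 arrays of the same number, all over 0.1, though the labels state no link. Between arrays of different numbers they correlated at -0.483 to 0.247, the highest for LGR4 replicate 3 with GPR124 replicate 2. The reported fit has no replicate term; a fit with the replicate number as a block and differences between same-numbered arrays were added beside it. Dyes were not swapped. The number of arrays limits precision.

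The comparison, lists and tests were chosen with earlier results of these data known. Identifiers are given for the 2 largest differences in each direction among probes called, with groups not overlapping and Cy3 signal well above background on each array of the higher group; the 20 largest are described by count. The gene lists and the cell type markers of the design were not used, since 0 probes matched a gene.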

Additional observations from a re-analysis of the deposited data

How the results depend on the processing

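The number of probes that differed was 12139, and 7363 with median centring, 7746 with slide as a fixed block, 3713 on slide 3 alone and 1165 with a minimum of 1 log2; leaving out single arrays gave 10080 to 12632. With the replicate block it was 11298, and the pairing changed no call of a named probe. The 1165 probes that differed by at least 1 became 2640 with processed signals and 1067 to 1285 without single arrays. The median difference of raised probes, 0.437, was 0.259 with median centring, 0.0834 when any called log ratio defined the list, and 0.378 to 0.464 without single arrays. That of lowered probes, -0.143, was -0.254 with processed signals, -0.225 when F2RL2 arrays defined the list, -0.0401 with any called log ratio, and -0.186 to -0.0986 without single arrays. The slope difference of 0.133 was 0.181 with processed signals, 0.205 on the F2RL2 mean, and 0.108 to 0.160 without single arrays; Cy3 alone has no reference and gave no slope. Cy5 calls, 204, were 2473 with slide as a fixed block, 1893 with slide as a random block, 1114 on slide 3, 55 with the replicate block, 49 to 11131 without single arrays, and 0 with the 6 arrays alone (limma; 2914 at an unadjusted p under 0.05). Of the named probes, AGPOA3-39164 alone lost its call, with processed signals (-2.13); AGPOA3-26962 gave no value under the strictest filter. The share of calls higher under LGR4 siRNA fell below that of lower calls with median centring (39.0%), processed signals (45.8%) and without GPR124 replicate 1 (47.8%); list medians, slope difference and named probes kept their direction under the alternatives run. The bin, left-out-array, same-number and slide 3 reference values were added after the data were seen. Dim probes limit the rest: 9755 of 43221 were not well above background in Cy3 on any of the 6 arrays.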
